A study of Rattus norvegicus with 3 samples.

Results

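The ribosomal protein genes were taken as every row of the deposited tables whose symbol names a numbered protein of the small or large subunit of the cytosolic ribosome (Rps or Rpl and a number), a stalk protein (Rplp0 to Rplp2) or Rpsa. The rule used symbols and no measured value. It found 93 of 32883 rows, which carry 85 distinct symbols. Of these rows, 79 belong to 71 core symbols, the standard proteins of the ribosome, 8 are paralogs such as Rps27l, and 6 are other matched symbols such as Rps19bp1, which encodes a binding partner of a ribosomal protein and not a ribosomal protein. Another 6 of the 77 core symbols (Rpl22, Rpl37, Rplp1, Rps14, Rps26 and Rps7) had no row under that symbol and were not analysed here.

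RNA-seq was done on retinas of Sprague-Dawley rats at postnatal day 60, with 3 libraries and 1 library per group. The CTL library is labelled as without treatment, while the protocol describes sham surgery with a needle in the anterior chamber at 2.66 kPa and 12 h of survival; which of these holds was not settled. The HIOP library comes from retina taken 12 h after ischemia, made by raising the intraocular pressure to 110 mmHg for 60 min. The HIOP_GSK library had the same ischemia after a drug named only as GSK had been injected into the anterior chamber 24 h earlier. No vehicle library was analysed here, and the identity and dose of the drug and the number of animals per library are not given in the sources used here. With 1 library per group there was no test of any difference: each ratio is printed with an exact 95% Clopper-Pearson interval from its pair of counts, which covers counting error only, since the reads carry no molecular identifiers and are not independent molecules. The comparisons share libraries, so their values are set side by side and are not independent.

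Ribosomal proteins assemble with ribosomal RNA in the nucleolus into a small subunit, which reads the mRNA, and a large subunit, which forms the peptide bonds, and every nucleated cell makes them in roughly matched amounts. Their mRNAs are the classical members of the TOP class: they begin with a C followed by a run of pyrimidines, the 5′ terminal oligopyrimidine tract, through which growth signals that pass through mTOR and LARP1 control their translation. In the retina, rods renew their outer segments every day and so depend on continuous protein synthesis.

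The sequences around the annotated start site were searched for this feature, and 9 of them, with and without it, are printed for core genes on which the results below turn. RefSeq promoter entries of the build GRCr8 were matched by symbol for 55 core symbols with a single entry, 1 symbol (Rps27a) had more than 1 entry, and another 15 are named only. Each line holds 65 bases, 40 before and 25 from the annotated start, 5′ to 3′ on the gene's strand. Capitals mark the longest pyrimidine run (C or T) that overlaps the 15 bases on either side of the start.
Rps27: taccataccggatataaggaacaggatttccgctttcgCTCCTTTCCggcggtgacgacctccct
Rpl41: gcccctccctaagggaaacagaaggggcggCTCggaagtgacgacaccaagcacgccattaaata
Rpl35: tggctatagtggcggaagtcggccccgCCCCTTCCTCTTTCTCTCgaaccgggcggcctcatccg
Rps9: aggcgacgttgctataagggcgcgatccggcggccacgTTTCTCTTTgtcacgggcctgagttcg
Rps2: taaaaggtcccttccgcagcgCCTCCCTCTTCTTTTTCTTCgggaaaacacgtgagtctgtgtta
Rpl18: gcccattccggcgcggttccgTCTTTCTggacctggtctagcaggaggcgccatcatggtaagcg
Rpl21: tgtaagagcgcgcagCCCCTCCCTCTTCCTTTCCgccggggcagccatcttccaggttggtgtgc
Rpl13a: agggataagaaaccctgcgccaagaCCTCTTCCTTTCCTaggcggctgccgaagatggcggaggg
Rps13: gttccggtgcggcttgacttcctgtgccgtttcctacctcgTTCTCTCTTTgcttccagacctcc
Rps27 (chr2:177964582-177964646, minus strand), Rpl41 (chr7:1563473-1563537, minus strand) and Rpl35 (chr3:43165897-43165961, minus strand) had the highest mean TPM. Rps9 (chr1:74430413-74430477, minus strand), Rps2 (chr10:14251808-14251872, plus strand) and Rpl18 (chr1:105325230-105325294, plus strand) had large ratios of HIOP over CTL. Rpl21 (chr12:13386129-13386193, minus strand), Rpl13a (chr1:104748889-104748953, minus strand) and Rps13 (chr1:180009636-180009700, minus strand) had small ones. The last 6 were chosen after their values were seen.

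A C with at least 4 pyrimidines after it stood exactly at the annotated start in 18 of the 55 core entries (32.7%), against 2.63% of all 33469 entries in the table. A pyrimidine run of at least 8 bases overlapped the 15 bases on either side of the start in 42 of 55 (76.4%), against 17.1% of all entries. Rps27 and Rpl35 are among the 18. The run of Rps9 spans the annotated start with no C there, that of Rps2 ends at it, those of Rpl18, Rpl21 and Rpl13a end before it, and that of Rps13 begins at base 2, counted from the start. Rpl41 has no run longer than 3 bases there. The word CTTTCC, searched on the sense strand from 15 bases before to 25 after the start, was found in 27.3% of core entries and 1.67% of all entries. TATAAA, searched on the sense strand from 40 to 11 bases before the start, was found in 3.64% and 1.48%. CCGGAAG, searched on both strands within 50 bases of the start on either side, was found in 14.5% and 4.59%, and AAGATGGC, searched on both strands in the 50 bases from the start, in 7.27% and 1.36%. Among 9954 tested genes with 1 row and 1 entry, CCGGAAG was found in 8.55% and AAGATGGC in 2.85%, and among 55 entries of mitochondrial ribosomal proteins in 21.8% and 20%, so neither word is particular to the core members. The searches are not independent, since CTTTCC can lie inside a pyrimidine run and its last letters can be the first of CCGGAAG, and a match is a description of the letters, not of a bound site.

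The libraries held 16090064 (CTL), 17221510 (HIOP) and 15132754 (HIOP_GSK) counts. Counts were scaled by TMM and expressed as CPM, counts per 1000000 of the library; 15543 genes reached a CPM of 1 in some library and were held against the fold limits. All 10 rod markers were detected in every library, as the label retina requires, with a summed level of 29031, 28170 and 19912 CPM in CTL, HIOP and HIOP_GSK. Markers of other cells also differed: over the same libraries the sums were 4264, 2477 and 3087 CPM for 8 Müller glia markers, 611, 282 and 306 CPM for 8 ganglion cell markers, and 40.3, 41.0 and 113 CPM for 8 microglia markers. Such sums can hide members that differ in opposite directions. In HIOP over CTL, log2 ratios ran from -1.99 to 1.24 for the microglia markers and from -0.861 to 0.459 for the rod markers. The Müller glia markers ran from -4.56 to 1.24 there. For the rod markers in HIOP_GSK over HIOP the range was -1.09 to 0.198. The sum over 11 matched blood leukocyte markers was 22.2, 216 and 334 CPM, with S100a8, Cxcr2 and Il1r2 at 0 in CTL. Lens markers (13) summed to 1188, 3411 and 14174 CPM, corneal and surface epithelium markers (9) to 334, 25.3 and 97.2 CPM with Kera at 0 in HIOP, red cell markers (4 of 8 symbols matched) to 177, 401 and 173 CPM, and cell cycle markers (12) to 43.1, 58.6 and 175 CPM. The part of these cells in the results below was not tested, and in whole tissue fewer cells of a type and less RNA per cell cannot be told apart.

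The ribosomal protein rows split sharply by detection, on counts and on TPM alike. On counts, 78 of the 93 rows passed the filter; 74 of them had a CPM of at least 1 in every library, and the other 4 (rows of Rpl21, Rpl36a, Rpl39l and Rps19) passed through some libraries only. Deep rows were the majority: all 3 libraries had 100 counts or more together with a TPM of 10 or more for 65 rows. The 15 rows that did not pass were near 0 everywhere, and 8 core symbols had no row that passed: Rps6, the classical substrate of the S6 kinases, Rps29, Rpl7a, Rpl8, Rpl35a, Rpl38, Rpl39 and the stalk protein Rplp2. Rows of Rps6, Rplp2 and Rpl7a had a count of 0 in all 3 libraries, and Rps29 was at 2 counts in CTL, 8 in HIOP and 10 in HIOP_GSK. A count of 0 allows up to 0.186, 0.175 and 0.197 CPM in CTL, HIOP and HIOP_GSK.

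TPM did not restore these rows. All 7 rows with a count of 0 in every library also had a TPM of 0 in every library, and 0 rows had a count of 0 beside a TPM of at least 1 in any library. The TPM was in fact the sparser of the measures: 16 rows were at 0 TPM in all 3 libraries, and 3 rows (of Rpl21, Rps10l1 and Rps19) had a library with 20 counts or more beside a TPM of 0. Rps10l1, for example, had 21, 57 and 47 counts but a TPM of 0, 3.01 and 3.93. Many ribosomal protein genes have near-identical copies elsewhere in the genome, and RefSeq symbols that read as numbered copies (the symbol, l and digits) came to a median of 2 for the 8 core symbols that did not pass and 1 for the 63 that did, with a range of 0 to 11 in both. The sources used here do not give how reads shared by such copies were counted. Among the 8, Rps6 had 0 numbered copies and Rpl35a had 11, while Rpl31, which passed, also had 11. The cause of the listed 0 values was not tested, so a listed 0 is not taken as evidence that the protein's mRNA was lacking. The 14 rows of the 6 symbols with more than 1 row (Rpl21, Rpl32, Rpl7a, Rps19, Rps27a and Rps4x) are uncertain.

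Within a library, the core rows that passed spanned a wide range of levels. In CTL their median was 281 TPM, and in HIOP and HIOP_GSK it was 461 and 463 TPM. The most abundant per length were Rps27, a zinc finger protein of the small subunit, with 1217, 1906 and 1923 TPM in CTL, HIOP and HIOP_GSK, and Rpl41, the shortest ribosomal protein, with 1055, 1614 and 1946 TPM. Rpl35, Rpl21 and Rpl26 followed. Over the 61 core rows with at least 100 counts in every library, log2 TPM in CTL correlated with that in HIOP (Pearson 0.96, Spearman 0.96) and with that in HIOP_GSK (0.96 and 0.95), and HIOP with HIOP_GSK (0.99 and 0.98). These are correlations across genes that share transcript lengths and mapping properties in all libraries.

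Levels on counts and on TPM ordered the members differently. The number of counts per TPM unit in CTL ran from 0.806 for Rpl19 to 53.8 for Rpl7, with a median of 5.78 over core rows. Rpl7 had 3009 counts and 56.0 TPM in CTL, while Rpl19 had 370 counts and 459 TPM. Across the 75 rows that passed on both, the Spearman correlation of CPM with TPM was 0.60 in each library, so members' levels are compared with each other on TPM, and the ratios between libraries are from counts unless TPM is named.

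**Figure D1:**
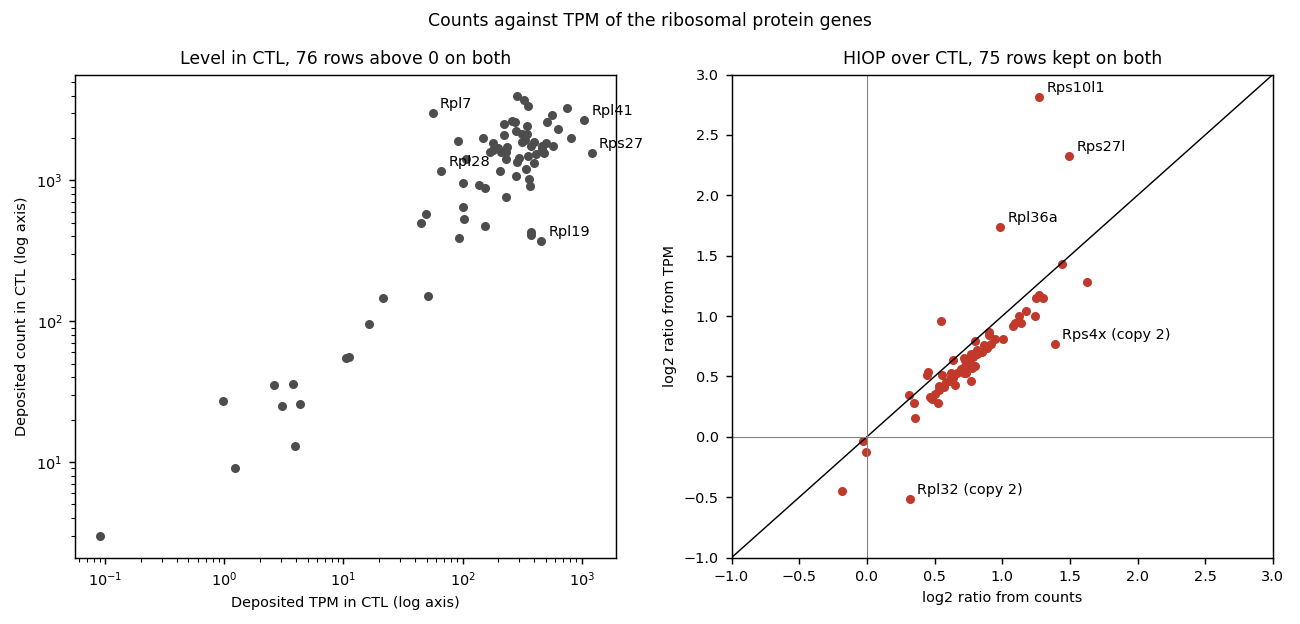
The left panel plots the deposited count against the deposited TPM in CTL (log axes) for the rows above 0 on both; Rpl7 lies far above and Rpl19 below the main cloud. The right panel plots the log2 ratio of HIOP over CTL from TPM against that from counts for 75 rows, with the line of equality; most points lie just below the line, and Rps10l1, Rps27l, Rpl36a and the second rows of Rpl32 and Rps4x lie more than 0.5 from it.

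Ribosomal protein mRNAs were higher in the ischemic retina than in the control retina, nearly throughout the family and by a modest amount. HIOP over CTL asks how retina differs 12 h after ischemia. The median log2 ratio of the 78 rows was 0.75, a 1.68-fold difference, with quartiles of 0.57 and 0.90, beside a median of 0.00 over all 15543 genes. At least 2-fold higher were 15 of 78 rows, where 8.99% of all genes were, and 0 were at least 2-fold lower, where 8.06% of all genes were. Of the 15, Rpl39l passed the filter only through HIOP and HIOP_GSK. Among rows with at least 20 counts and a TPM of at least 1 in every library, 13 of 72 were at least 2-fold higher. At least 1.5-fold higher were 57 of 78 (16.1% of all genes), and 75 of 78 had a log2 ratio above 0 (50.3% of all genes). The interval lay above 1 for 69 rows (32.6% of all genes) and below 1 for 0 (32% of all genes). All the members together took 0.664% of CTL counts (95% Clopper-Pearson 0.660 to 0.668) and 1.12% of HIOP counts (1.11 to 1.12). In CTL and HIOP the leukocyte markers summed to 22.2 and 216 CPM and the Müller glia markers to 4264 and 2477 CPM, and their part in the result was not tested.

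**Figure D2:**
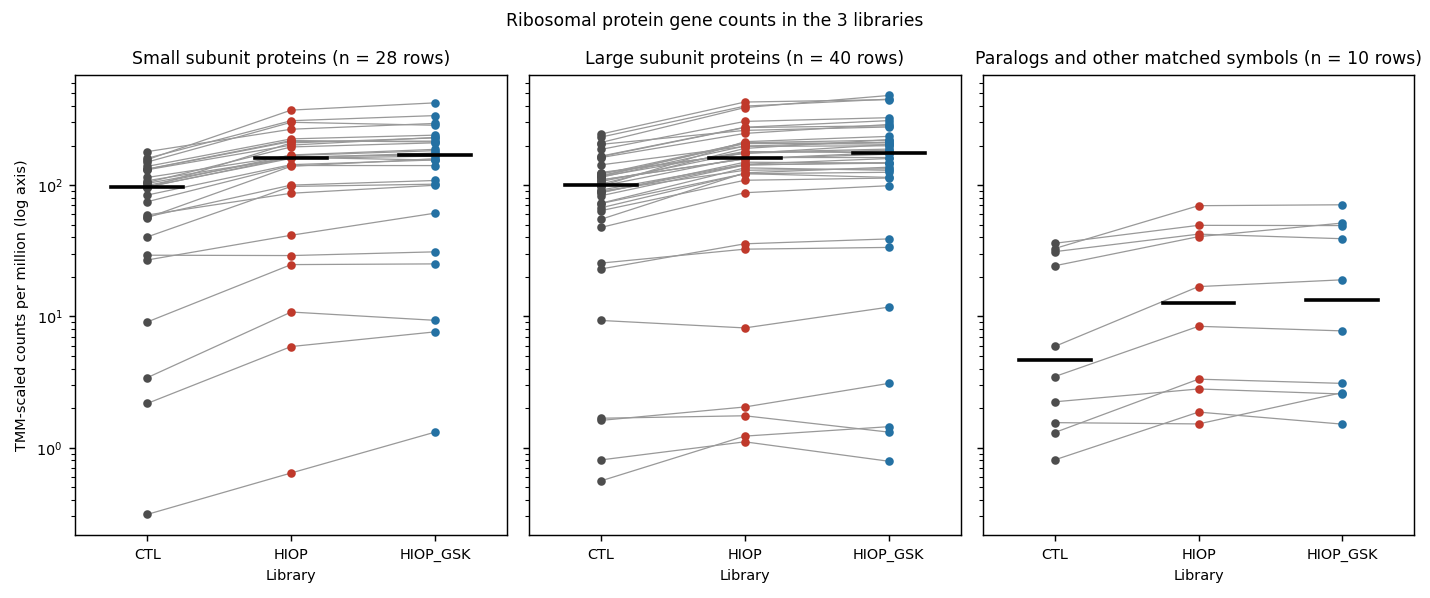
Scaled CPM (log axis) of the rows that passed the filter, in each of the 3 libraries, by class; each point is a row, grey lines join a row across libraries, and black bars are medians. Most lines go up from CTL to HIOP and are nearly level from HIOP to HIOP_GSK. The median goes from 96.9 to 162 and 168 CPM for the small subunit, and from 100 to 160 and 174 CPM for the large subunit.

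Among the small subunit proteins, 8 of 28 rows were at least 2-fold higher in HIOP than in CTL (8.99% of all genes), with a median log2 ratio of 0.77. Rps20, a protein of the subunit's head, had 908 counts in CTL, 2384 in HIOP and 2415 in HIOP_GSK. Rps2, near the mRNA entry, had 2515, 6381 and 6434. In both of these CTL was low and the ischemic libraries were high. Their unscaled counts in HIOP and HIOP_GSK were close, but on scaled counts the interval of HIOP_GSK over HIOP lay above 1 for both. The ratio of HIOP over CTL was 2.47 for Rps20 (2.29 to 2.67) and 2.38 for Rps2 (2.28 to 2.5). Rps9, a protein tied to decoding accuracy, had fewer counts, 146, 425 and 382, and a ratio of 2.74 (2.26 to 3.32). Rps18 followed with 1534, 3590 and 3479 counts and a ratio of 2.20 (2.07 to 2.34). On TPM, Rps9, Rps2 and Rps20 were also at least 2-fold higher, and Rps18 was 1.92-fold higher.

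Rps27a encodes ubiquitin fused to a small subunit protein, and 2 rows carry its symbol. The deeper row had 2412, 5154 and 4344 counts in CTL, HIOP and HIOP_GSK and a ratio of HIOP over CTL of 2.01 (1.91 to 2.11). The shallower row had 55, 185 and 142 counts and a ratio of 3.16 (2.33 to 4.35). Rps4x likewise had a deep row at 2235, 3854 and 3652 counts, with a ratio of 1.62 (1.54 to 1.71), and a shallow row at 35, 101 and 116 counts, with a ratio of 2.71 (1.83 to 4.11). In both symbols the shallow row had the larger ratio, but reads of near-identical copies may be split between the rows. Rpsa, first known as a laminin receptor, had 2577, 5299 and 5145 counts and a ratio of 1.93 (1.84 to 2.03), and Rps3, which lines the mRNA entry channel, had 1597, 2906 and 2847 counts and a ratio of 1.71 (1.61 to 1.82). Rps27, at the highest mean TPM of the family, had 1554, 2786 and 2360 counts and a ratio of 1.68 (1.58 to 1.79), close to the family median.

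The large subunit proteins lay closer together: 2 of 40 rows, Rpl18 and Rpl6, were at least 2-fold higher in HIOP than in CTL. That share was not above the 8.99% of all genes, while the median log2 ratio was 0.73. Rpl18 had 884, 2124 and 2082 counts in CTL, HIOP and HIOP_GSK and a ratio of HIOP over CTL of 2.26 (2.09 to 2.45), and Rpl6 had 1584, 3670 and 3574 counts and a ratio of 2.18 (2.05 to 2.31). CTL was the low library in both. Rplp0, the base of the stalk that recruits elongation factors, had 3396, 6673 and 7322 counts and a ratio of 1.85 (1.77 to 1.93). Rpl5 and Rpl11, which with 5S ribosomal RNA bind MDM2 when ribosome assembly is disturbed, had 2652, 4703 and 4302 counts and 1583, 2782 and 2466 counts. Their ratios of HIOP over CTL were 1.67 (1.59 to 1.75) and 1.65 (1.55 to 1.76), near the family median. Rpl41 had 2676, 4724 and 4711 counts and a ratio of 1.66 (1.58 to 1.74). Rpl35 and Rpl26, both at the exit of the peptide tunnel, had smaller ratios, 1.42 (1.34 to 1.5) and 1.38 (1.31 to 1.46).

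A few members were not higher, or hardly so. Rps13 had 471, 498 and 472 counts in CTL, HIOP and HIOP_GSK and a ratio of HIOP over CTL of 0.994 (0.874 to 1.13). Rpl30, whose yeast relative controls the splicing of its own transcript, had 150, 140 and 179 counts and a ratio of 0.877 (0.692 to 1.11). For both, the difference was not detectable at this depth, and the interval ends below the family's 1.68-fold. Of the 65 rows with at least 100 counts in every library, these were the only ones without a log2 ratio above 0 in this comparison. The deep row of Rpl21 was also little higher, with 3289, 4472 and 4214 counts and a ratio of 1.28 (1.22 to 1.34), as was Rpl13a, with 410, 557 and 510 counts and a ratio of 1.28 (1.12 to 1.45).

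The members' counting intervals did not all hold the core median ratio. That median comes from the same rows, and the intervals can be too narrow because reads are not independent molecules. Whether the members differ in their ratios was therefore not tested. Of the 68 core rows that passed, 20 had an interval of HIOP over CTL that lay wholly above the core median of 1.68-fold, 18 had one wholly below it, and 30 had one that held it. Above it were Rps20, Rps2, Rps9, Rps18, Rpl18 and Rpl6 together with Rpl10, Rpl17, Rplp0 and Rpsa among others. Below it were Rps13, Rpl30, Rpl21 and Rpl13a together with Rpl26, Rpl34, Rpl35, Rpl37a and Rps25 among others. How much core members vary between animals of 1 group was not measured here.

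**Figure D3:**
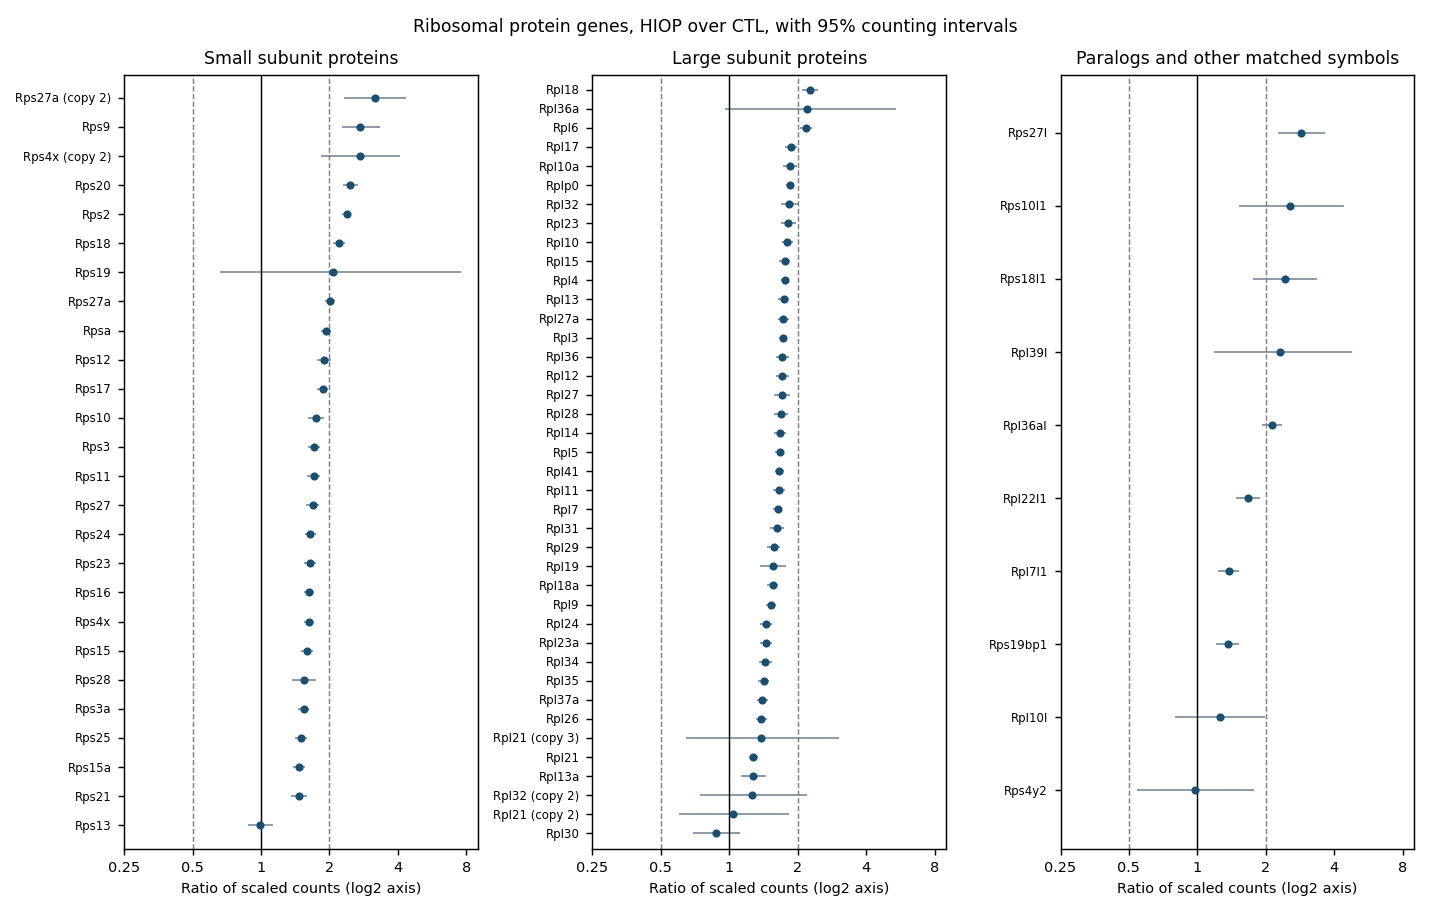
Ratio of scaled counts, HIOP over CTL (log2 axis), for the rows that passed the filter and are reported here, by class, each with its 95% counting interval; the solid line is a ratio of 1, dashed lines are the 2-fold limits, and a copy is a row with fewer counts that shares a symbol. Most points lie between 1.5 and 2, and Rps13, Rpl30 and Rps4y2 lie just under 1.

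Paralogs and other matched symbols were mostly at low levels. Rps27l, a paralog of Rps27 known as a p53 target, had 95, 289 and 289 counts in CTL, HIOP and HIOP_GSK and a ratio of HIOP over CTL of 2.86 (2.26 to 3.64). On TPM it was at 16.3, 83.8 and 59.8, a ratio of 5.14. Both measures had CTL as the low library, but they disagreed on the size. HIOP and HIOP_GSK had the same unscaled count. Scaled for depth, the count was higher in HIOP_GSK, while the TPM was higher in HIOP. Rpl36al, a paralog of Rpl36a, had 529, 1194 and 1077 counts and a ratio of 2.12 (1.91 to 2.35). Rpl22l1, the paralog of Rpl22, had 391, 694 and 782 counts and a ratio of 1.67 (1.47 to 1.89). Rpl7l1 had 580, 846 and 748 counts and a ratio of 1.37 (1.23 to 1.53), and Rps19bp1, the binding partner, had 501, 725 and 594 counts and a ratio of 1.36 (1.21 to 1.53).

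The remaining paralogs and other matched symbols were shallow. Rpl10l, a retrogene paralog best known from testis, had 36, 48 and 39 counts, and Rpl39l, also best known from testis, had 13, 32 and 23. Rps4y2 had 25, 26 and 40 counts, Rps18l1 had 56, 144 and 118, and Rps10l1 had 21, 57 and 47. Of these, Rpl39l, Rps18l1 and Rps10l1 were at least 2-fold higher in HIOP than in CTL, with ratios of 2.31 (1.18 to 4.8), 2.42 (1.76 to 3.35) and 2.55 (1.52 to 4.43). Rpl39l passed the filter only through HIOP and HIOP_GSK, so the filter favoured higher values there. Rpl3l, known from heart and skeletal muscle, had at most 3 counts in any library, Rpl35al1 had 1 in each, and Rpl30l1 and Rps15al4 were at a count of 0.

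TPM gave the same direction with a smaller median for HIOP over CTL. The median log2 ratio on log2(TPM + 0.5) was 0.61 over 75 rows that passed a TPM of at least 1 in at least 1 library, and 9 of 75 were at least 2-fold higher, where 7.45% of 14282 genes were. At least 2-fold lower were 0 (8.93% of all genes), and 71 of 75 had a log2 ratio above 0 (40.5%). The median of all genes was itself -0.11 on this scale, and relative to it the members' median was 0.72, a centring added after the data were seen. The sign was the same on counts and TPM for 74 of 75 rows; the shallow row of Rpl32, with 26, 35 and 47 counts, was the exception. Rows at least 2-fold higher on both measures numbered 8, and the share of all genes past both limits was not computed. Across the 75 rows, the log2 ratios on counts and on TPM had a Spearman correlation of 0.92 and a Pearson correlation of 0.81; both come from the same libraries.

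With GSK given before ischemia, the family was near its level in the ischemic library without the drug. HIOP_GSK over HIOP asks how the ischemic retina differs with the drug. The median log2 ratio of the 78 rows was 0.09, with quartiles of 0.01 and 0.17, beside -0.00 over all genes. With a prior count of 2, 0 rows were at least 2-fold higher, as 4.56% of all genes were, and 0 were at least 2-fold lower, as 1.69% were. The 1.5-fold limit was passed upwards by 2 rows (9.68% of all genes), a shallow row of Rps19 and Rps4y2. That row of Rps19 passed the filter through HIOP_GSK alone, so the filter favoured a higher value there. A log2 ratio above 0 was found for 59 of 78 rows, where 49.9% of all genes had one. The interval lay above 1 for 35 rows, where it did for 20.3% of all genes, and below 1 for 2, where it did for 19.7%. The members took 1.21% of HIOP_GSK counts (95% Clopper-Pearson 1.21 to 1.22), 1.08 times the share in HIOP. On TPM the median was 0.11, beside 0.03 over all genes, and 0 of 75 rows passed the 2-fold limit in either direction, where 4.1% of all genes were higher by it and 1.75% lower.

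Rps28, a small protein near the mRNA exit, differed most among the deep rows, with 433, 711 and 930 counts in CTL, HIOP and HIOP_GSK and a ratio of HIOP_GSK over HIOP of 1.47 (1.33 to 1.63). Its TPM of 379, 547 and 841 kept that order. Rpl30 was high in HIOP_GSK alone, with a ratio of HIOP_GSK over HIOP of 1.44 (1.15 to 1.81), and Rplp0 had a ratio of 1.24 (1.20 to 1.28). Rpl9, which lies near the factor-binding site, had 2610, 4241 and 4404 counts and a ratio of 1.17 (1.12 to 1.22). Rpl37a had 2008, 2985 and 3096 counts and a ratio of 1.17 (1.11 to 1.23), and the paralog Rpl22l1 had a ratio of 1.27 (1.14 to 1.41). The intervals below 1 were those of the deep row of Rps27a, at 0.949 (0.912 to 0.989), and of Rpl23, at 0.936 (0.878 to 0.998), with 1081, 2095 and 1741 counts. In HIOP and HIOP_GSK the rod markers summed to 28170 and 19912 CPM, the lens markers to 3411 and 14174 CPM and the cell cycle markers to 58.6 and 175 CPM, and their part in these differences was not tested.

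**Figure D4:**
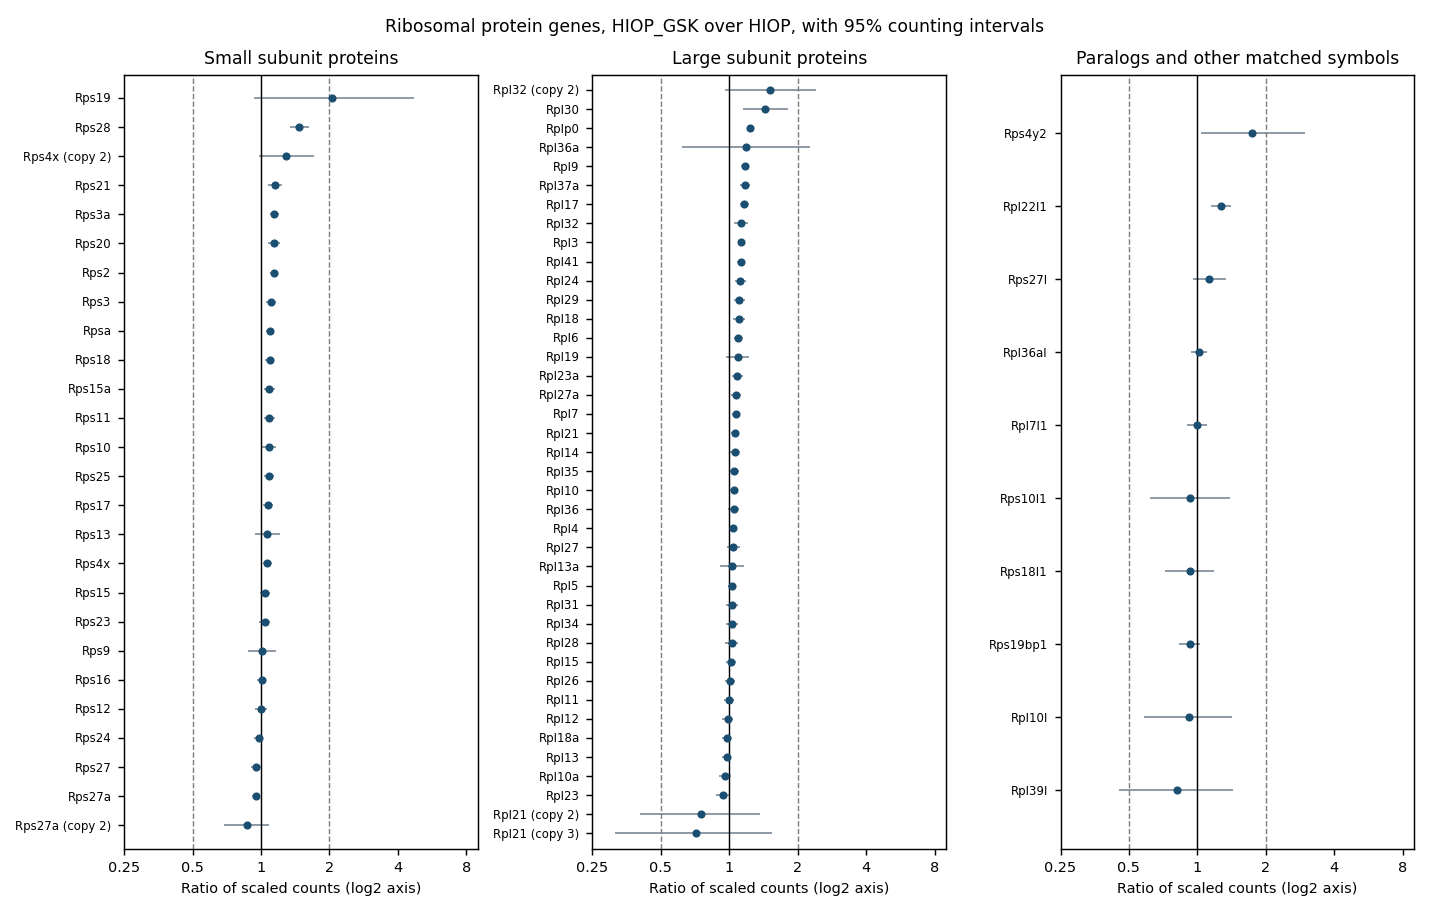
Ratio of scaled counts, HIOP_GSK over HIOP (log2 axis), for the rows that passed the filter and are reported here, by class, each with its 95% counting interval; the solid line is a ratio of 1, dashed lines are the 2-fold limits, and a copy is a row with fewer counts that shares a symbol. Most core rows lie between 0.936 (Rpl23) and 1.24 (Rplp0), with Rps28 and Rpl30 to their right and wide intervals for shallow rows.

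HIOP_GSK over CTL, which shares a library with each of the comparisons above, was close to HIOP over CTL. The median log2 ratio was 0.82 over 78 rows, beside 0.00 over all genes. At least 2-fold higher were 22 of 78 (10.5% of all genes), the other limit was passed by 0 (6.32% of all genes were at least 2-fold lower), 66 were at least 1.5-fold higher (17.6%), and 76 had a log2 ratio above 0 (50.1%). Rpl36a and the shallow row of Rps19, both among the 22, were under a CPM of 1 in CTL and passed the filter through other libraries. Among rows with at least 20 counts and a TPM of at least 1 in every library, 19 of 72 were at least 2-fold higher. The small subunit had 11 of 28 rows at least 2-fold higher and a median of 0.91, and the large subunit 6 of 40 and a median of 0.79. Rps20 had a ratio of HIOP_GSK over CTL of 2.82 (2.61 to 3.04), Rps2 of 2.71 (2.59 to 2.84), Rpl18 of 2.49 (2.30 to 2.70) and the shallow row of Rps4x of 3.51 (2.39 to 5.28). Rps13 remained at 1.06 (0.932 to 1.21). On TPM the median was 0.73 and 19 of 75 rows were at least 2-fold higher (9.11% of all genes), with 0 at least 2-fold lower (7.33%). CTL had the lowest CPM in 64 of the 68 core rows that passed, where 42.6% of all genes had it there, and the order CTL, HIOP, HIOP_GSK from low to high held in 53, where it did for 21.2% of all genes.

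Other genes of the translation machinery were also higher in HIOP than in CTL. Fau, which encodes a ribosomal protein as a fusion with a ubiquitin-like protein, and Rack1, a scaffold on the small subunit, fall outside the symbol rule. Fau had 1390, 1926 and 1858 counts in CTL, HIOP and HIOP_GSK and a ratio of HIOP over CTL of 1.3 (1.21 to 1.4), and the deep row of Rack1 had 2052, 4092 and 3819 and a ratio of 1.87 (1.78 to 1.98). Both were lowest in CTL. Among 17 other genes known for TOP mRNAs, the median log2 ratio of HIOP over CTL was 0.62, with 3 at least 2-fold higher (8.99% of all genes). The nucleolar chaperone Npm1 was 2.75-fold higher (2.61 to 2.90) and the elongation factor subunit Eef1b2 2.22-fold higher (2.04 to 2.42).

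The 30 initiation, elongation and release factors had a median of 0.63 in HIOP over CTL, with 3 at least 2-fold higher, a share near the 8.99% of all genes. The initiation factors Eif3b and Eif4a1 were 2.49-fold (2.31 to 2.69) and 2.30-fold (2.20 to 2.41) higher, and Eef1a2, the elongation factor form of mature neurons and muscle, had a ratio of 0.732 (0.693 to 0.774). For 29 ribosome assembly and RNA polymerase I genes the median was 0.90, with 12 at least 2-fold higher (8.99% of all genes). The nucleolar methyltransferase Fbl was 3.29-fold higher (2.62 to 4.17), and Myc, which drives ribosome synthesis, had 19, 842 and 421 counts in CTL, HIOP and HIOP_GSK. In HIOP_GSK over HIOP the assembly genes had a median of -0.18, with 26 of 29 below 0, while the ribosomal proteins had 0.09, with 19 of 78 below 0. Of all genes, 7793 of 15543 were below 0 in that comparison. Proteins of the mitochondrial ribosome, a separate machine, had a median of 0.25 over 72 rows in HIOP over CTL. Of them, 0 passed the 2-fold limit upwards (8.99% of all genes) and 1 downwards (8.06% of all genes). The differences between these lists were not tested.

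**Figure D5:**
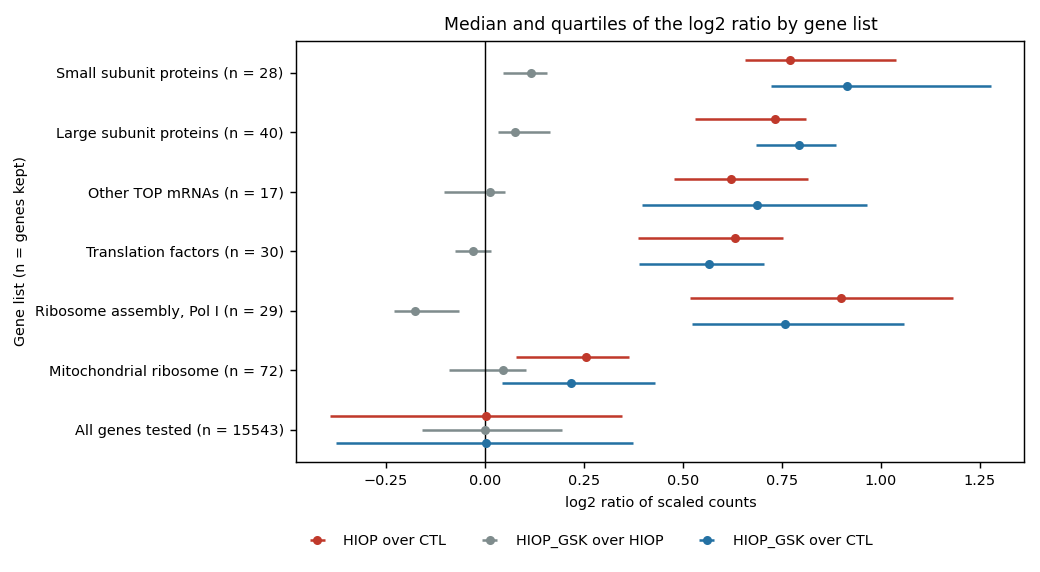
Median (point) and quartiles (bar) of the log2 ratio of scaled counts for each gene list and for all genes tested, in the 3 comparisons. Cytosolic ribosomal proteins sit at 0.77 and 0.73 in HIOP over CTL, the mitochondrial ribosome at 0.25 and all genes at 0.00, and in HIOP_GSK over HIOP the ribosome assembly genes sit at -0.18.

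The ratios were last read by the annotated start. Core rows that passed and have a C with at least 4 pyrimidines exactly at the start (16) had a median log2 ratio of HIOP over CTL of 0.72, and the 33 with another start had 0.77. Among tested genes outside the family, the 253 with that start had a median of -0.01 and the 9650 without it 0.03. At least 1.5-fold higher were 15.8% of the former and 15.7% of the latter. In HIOP_GSK over HIOP the core medians were 0.08 and 0.09. Of 12 entries of other genes known for TOP mRNAs, 0 had that start exactly. A pyrimidine run of at least 8 bases near the start was found in 11 of them. The split therefore sorts annotated starts and cannot be read as TOP mRNAs against others. These medians carry no test.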

How the data were processed

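Per the labels' protocols, directional libraries were made from 3 µg of RNA per sample after removal of ribosomal RNA. The submitters' processing notes name the build Rnor_6.0, RSEM 1.3.1 and STAR 2.5.4b, with no role for any; the strand setting of the counting is not given in the sources used here. The deposited counts are whole numbers per gene, not normalized; the deposited TPM values sum to 1000000 per library. Counts were scaled with TMM (edgeR 4.0.16, R 4.3.3), genes that reached a CPM of 1 in any library were kept, and log2 ratios used a prior count of 2. Intervals and bounds were computed with scipy 1.17.1 from the counts; a count of 0 allows up to 3 counts. TPM ratios used a pseudocount of 0.5 and a TPM of at least 1 in at least 1 library. The functions were tested on simulated counts. Alternatives included DESeq2 1.42.0 size factors. Promoters came from RefSeq (GRCr8), and coordinates of the files' build were not used.

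The members and lists were chosen with earlier results of these data known. The members named in the text are, per comparison and direction, the 5 core rows with the most extreme interval bound nearest 1, the 5 of highest mean TPM, every paralog and other matched symbol, and a set of well-known members (Rplp0, Rplp2, Rpsa, Rps27a, Rps6, Rpl5, Rpl11, Rps3, Rps27 and Rpl41), and for other lists 2 genes per direction. Rps13, Rps18, Rpl6, Rpl13a, Rpl7, Rpl19, members named only in a count or listing, and the deep rows of Rps4x and Rpl21 beside their copies were singled out after their values were seen. Of the 2 genes per direction for other lists, only some are named. The protein sequences of the members were not used here. A few members are not reported by name.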

Additional observations from a re-analysis of the deposited data

How the results depend on the processing

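No paired analysis was possible because each group had 1 library, and for the same reason no library could be left out. Under TMM, total counts, DESeq2 size factors, TMM without mitochondrial and 20 top genes, priors of 0.5 and 10, other count filters, core rows alone, and rows with at least 20 counts and a TPM of at least 1 in every library, each median stayed within the members' median counting interval, and the counts of rows past 2-fold stayed within 1.5 times, with 1 exception: without a filter, 1 row was at least 2-fold higher in HIOP_GSK over HIOP (Rpl35a, with 0 counts in HIOP and 3 in HIOP_GSK). On TPM the median of HIOP over CTL was 0.61 with a pseudocount of 0.5 and 0.61 with 0.1, and 9 rows were at least 2-fold higher with 0.5; with 0.1, 1 row was at least 2-fold lower in HIOP_GSK over HIOP. The cause of these was not tested. With a 1.5-fold limit, rows higher numbered 57 in HIOP over CTL, 2 in HIOP_GSK over HIOP and 66 in HIOP_GSK over CTL. The members' share was 2.06%, 3.12% and 3.43% of TPM in CTL, HIOP and HIOP_GSK, and 0.745%, 1.25% and 1.34% of counts without mitochondrial and 20 top genes. None of the named members past 2-fold changed direction under any alternative run, but their sizes did depend on the measure. On TPM with a pseudocount of 0.5, 21 of 33 named rows fell outside their counting interval in HIOP over CTL. In HIOP_GSK over HIOP 6 of 33 did, and in HIOP_GSK over CTL 12 of 33. With TPM centred on the median of all genes, the number in HIOP over CTL was 6 of 33. The uncentred TPM median of HIOP over CTL also lay outside the members' median counting interval. Depth limits the shallow rows, such as Rpl36a with 9, 21 and 22 counts in CTL, HIOP and HIOP_GSK.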
